A study of Mus musculus with 13 samples.

Results

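miR-21 is a microRNA hairpin whose arms were measured on the arrays under the names mmu-miR-21-5p and mmu-miR-21-3p, and these 2 features were taken by name out of 1122 mouse miRNAs. MicroRNA was profiled with 1-colour (Cy3) Agilent arrays on 13 samples, all from mice of the C57BL/6 strain. DN are CD4-CD8- and DP are CD4+CD8+ thymocytes, the latter the later stage of normal thymic development, each sorted from thymus on 3 arrays. ES stands for the early stage and LS for the late stage of T-cell acute lymphoblastic leukaemia (T-ALL), with 3 arrays each. These leukaemic cells were CD4+CD8+ cells sorted out of spleens of chimeras, in which the grafted bone marrow had been transformed with N1ICD, the intracellular part of Notch1 that signals without a ligand. M295 is a cultured mouse T-ALL line of C57BL/6 origin, on 1 array. The labels give no age, no promoter for N1ICD and no sort marker of the transformed cells beyond CD4 and CD8. Since all T-ALL cells are splenic and all thymocytes thymic, disease and tissue cannot be told apart.

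MicroRNAs guide Argonaute proteins to messenger RNAs that pair with their seed, bases 2 to 8 of the mature strand, and lower the output of those messages. Of the arms of the miR-21 hairpin, the 5p arm is the guide strand in most tissues and the 3p arm is the passenger, which is usually degraded. miR-21-5p is raised in many solid and blood cancers, is induced when T cells are activated, and is known to target messages of growth and death regulators such as Pdcd4. The groups allow T-ALL driven by Notch1 to be compared with normal thymocytes, and its stages with each other.

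The mature sequences are shown because the seed decides which messages each arm can pair with, and because the mouse genome holds near copies of miR-21-5p. They are RefSeq sequences on build GRCm38.p6, written 5′ to 3′, with the seed in capitals. The array names follow miRBase release 18, and RefSeq lists the same hairpin as Mir21a.
mmu-miR-21a-5p: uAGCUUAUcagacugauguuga
mmu-miR-21a-3p: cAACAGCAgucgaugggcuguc
mmu-miR-21c: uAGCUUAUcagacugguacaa
mmu-miR-21b: uAGUUUAUcagacugauauuucc

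Both arms lie on the minus strand of chromosome 11, the 5p arm at chr11:86584120-86584141 and the 3p arm at chr11:86584082-86584103. The Mir21a hairpin, at chr11:86584067-86584158, falls within the span of the protein-coding gene Vmp1 on the same strand, 209 bases from its 3′ end; exon and UTR annotation was not used here. The seeds of the arms differ, so the arms would pair with different messages. Of 1679 mature mouse names in RefSeq, only miR-21c shared the seed of miR-21-5p, and no other shared that of miR-21-3p. Counted from 1 at the 5′ end, with the miR-21a-5p base first, miR-21c differs from it by A16G, G18A, U19C, U20A and G21A, none of them in the seed. miR-21b differs by C4U, which is in the seed, and by G18A, G21U and A22C. Neither miR-21b nor miR-21c has a name on the array. Whether they bound the miR-21-5p probes was not tested, since probe sequences were not used here. The closest miRNA gene to Mir21a with a name on the array, Mir301, is 528846 bases away, and its miR-301a-3p was above background on 13 of 13 arrays.

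Levels are log2 intensity relative to each array's 75th percentile over 108 miRNAs measured above background on all 12 primary arrays, with a floor of -7.59. A miRNA is called above background if any of its probes on that array has 50% or more of its kept spots marked so by the scanner software. The arrays had 115 to 257 mouse miRNAs above background and no saturated spot. ES 1 was the noisiest array, with a negative-control standard deviation of 18.7 intensity units against 5.21 to 7.11 on the others, and it had the fewest miRNAs above background. The arrays sat on 2 slides, both holding all 4 primary groups. No mRNA was measured, so the CD4 and CD8 gates could be checked against miRNAs only. miR-181a-5p, an abundant miRNA of DP thymocytes, lay between 1.80 and 1.96 in DP, above all other arrays, and between -2.52 and 0.11 in T-ALL.

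By group mean, miR-21-5p was lowest in DP thymocytes, intermediate in DN thymocytes and highest in T-ALL. The differences of ES and LS from DN, given below, did not reach an adjusted p under 0.05. miR-21-5p was above background on all 13 arrays. In DP its level was -0.94, -0.89 and -1.27, from background-subtracted intensities of 953, 1216 and 697. In DN it was 1.30, 1.41 and 1.12, with intensities of 3767, 4028 and 2938. Every DN array was thus brighter than every DP array, and within each thymocyte group the arrays lay close together.

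In early-stage T-ALL the miR-21-5p level was 2.11 in ES 1, 2.02 in ES 2 and 3.42 in ES 3, from intensities of 6332, 7018 and 23096. In late-stage T-ALL it was 2.79 in LS 1, 1.39 in LS 2 and 1.82 in LS 3, from intensities of 13051, 5147 and 5731. ES 3 and LS 1 were the high arrays of their groups. LS 2, at 1.39, fell just under the highest DN array at 1.41, and this was the only primary T-ALL array that did not exceed every thymocyte array. The T-ALL groups overlapped each other. The mean level was -1.04 ± 0.20 in DP, 1.27 ± 0.15 in DN, 2.00 ± 0.72 in LS and 2.52 ± 0.78 in ES (SD, n = 3 each). In this order, DP and DN were separated beyond their spread, whereas LS overlapped both DN and ES. In sorted bulk RNA, more cells with the miRNA and more of it per cell cannot be told apart.

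**Figure D1:**
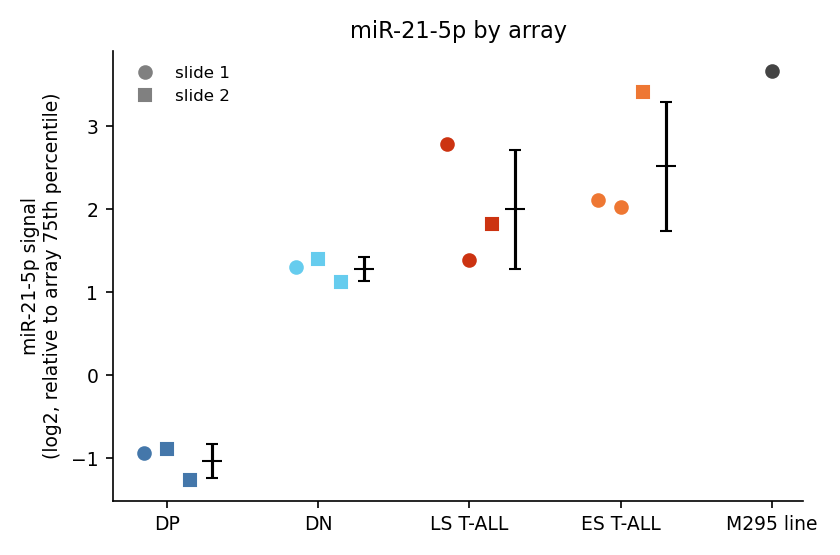
Level of miR-21-5p (log2 intensity relative to the array's 75th percentile) on each of 13 arrays, by group. Circles are slide 1, squares slide 2, and bars give the mean and SD of 3 arrays. The DP arrays sit between -1.27 and -0.89, the DN arrays between 1.12 and 1.41, the T-ALL arrays between 1.39 and 3.42, and M295 at 3.66.

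miR-21-5p was measured by 2 probes with 20 spots each, and these probes gave the same picture. Spot-to-spot variation within an array was small, with a median coefficient of variation of 4.88% for the first probe and 3.12% for the second. In ES against DP the log2 fold change was 3.48 by the first probe alone and 3.75 by the second. In LS against DP it was 2.96 and 3.24, and in DN against DP it was 2.24 and 2.50.

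The comparisons were made with limma, on the 229 miRNAs that every array of some group measured above background, with p-values adjusted over these by the Benjamini-Hochberg method and called under 0.05. Comparisons share arrays, so they are not independent of each other. Where the arrays of 2 groups are said not to overlap, the share of all tested miRNAs that separate likewise was not counted. On slide 1 DN and DP, and on slide 2 ES and LS, have 1 array each, so differences between single groups within a slide are given as values with no test.

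miR-21-5p rose in early-stage T-ALL against DP thymocytes, the normal cells with the same CD4 and CD8 markers. The log2 fold change was 3.55 ± 0.42 (SE; 95% interval 2.63 to 4.47), or 11.7-fold, with a limma adjusted p of 1.12e-04, and the groups did not overlap. In that comparison 21% of tested miRNAs were called higher and 25.3% lower, and miR-21-5p ranked 2 of 229 by log2 fold change. Within slide 1 the difference was 3.01 and within slide 2 it was 4.50.

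miR-21-5p also rose in late-stage T-ALL against DP. The log2 fold change was 3.03 ± 0.42 (SE; 95% interval 2.11 to 3.96), or 8.19-fold, with a limma adjusted p of 2.33e-04 and no overlap. Here 32.3% of tested miRNAs were called higher and 26.2% lower, and miR-21-5p ranked 6 of 229. The difference was 3.03 within slide 1 and 2.90 within slide 2.

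miR-21-5p was also higher in DN than in DP thymocytes, that is, within normal development. The log2 fold change was 2.31 ± 0.42 (SE; 95% interval 1.39 to 3.23), or 4.96-fold, with a limma adjusted p of 0.00225. In this comparison 10.5% of tested miRNAs were called higher and 18.8% lower, and miR-21-5p ranked 5 of 229. The difference was 2.24 within slide 1 and 2.34 within slide 2.

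Against DN thymocytes the differences were smaller and were not called. In ES the log2 fold change over DN was 1.24 ± 0.42 (SE; 95% interval 0.32 to 2.16), with a limma adjusted p of 0.111. All 3 ES arrays lay above all 3 DN arrays, but how many tested miRNAs separate likewise was not counted. In that comparison 3.93% of tested miRNAs were called higher and 2.62% lower. Within slide 1 it was 0.77 and within slide 2, where ES is ES 3 alone, it was 2.16. Without ES 2 the ES over DN value was 1.49, with a limma adjusted p of 0.0492, and without ES 3 it was 0.79, with a limma adjusted p of 0.157.

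In LS the log2 fold change over DN was 0.72 ± 0.42 (SE; 95% interval -0.20 to 1.65), with a limma adjusted p of 0.228, and 2 of 3 LS arrays lay above all DN arrays. In that comparison 25.8% of tested miRNAs were called higher and 7.42% lower. The difference was 0.79 within slide 1 and 0.56 within slide 2. Without LS 1 the LS over DN value was 0.33, with a limma adjusted p of 0.553.

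Between stages, the LS minus ES difference was -0.52 ± 0.42 (SE; 95% interval -1.44 to 0.40), with a limma adjusted p of 0.508. Of the tested miRNAs, 2.18% were called higher and 0.437% lower in LS than in ES. The interval allows a difference in either direction. Within slide 1 the LS minus ES difference was 0.02, and between LS 3 and ES 3, alone on slide 2, it was -1.59. Without ES 3 it was -0.07, with a limma adjusted p of 0.927, and without LS 1 it was -0.91, with a limma adjusted p of 0.252.

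Over both stages and both thymocyte groups, miR-21-5p rose in T-ALL by a log2 fold change of 2.14 ± 0.29 (SE; 95% interval 1.49 to 2.79), or 4.40-fold, with a limma adjusted p of 3.24e-04. In this comparison 31.4% of tested miRNAs were called higher and 25.8% lower, and miR-21-5p ranked 11 of 229. An exact permutation test of the 6 T-ALL against the 6 thymocyte arrays, two-sided, gave p = 0.00433. The thymocyte mean of 0.12 ± 1.27 (SD, n = 6) covers DN and DP, which themselves differed. Within slide 1 the difference was 1.90 and within slide 2 it was 2.53. DN and DP on slide 1, and ES and LS on slide 2, have 1 array each, so no limma p is given within a slide. The exact permutation test gave p = 0.0667 within slide 1 and p = 0.133 within slide 2, and the smallest p either slide allows is 0.0667.

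**Figure D2:**
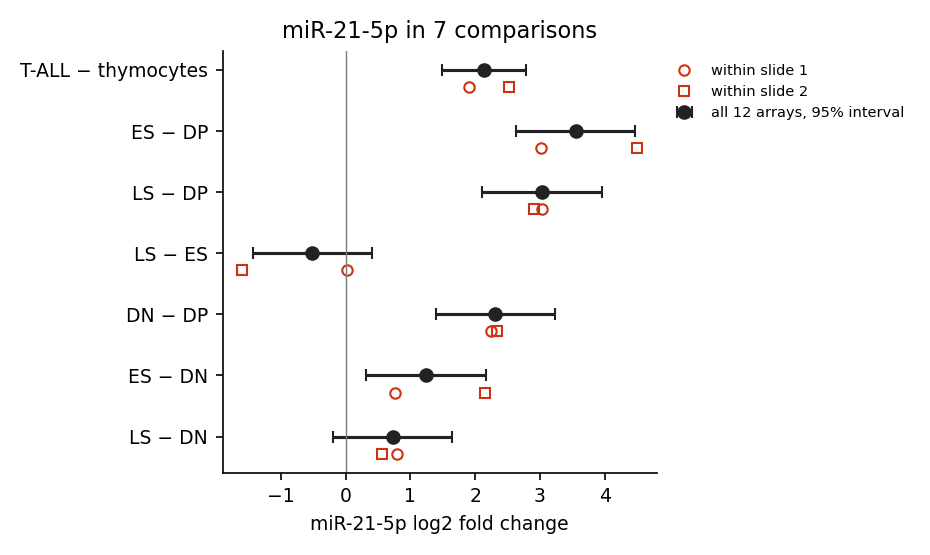
Log2 fold change of miR-21-5p in 7 comparisons, with the 95% interval of the limma fit to all 12 primary arrays (filled points) and the value within each slide (open symbols). ES, LS and DN all lie above DP on both slides, whereas LS minus ES is 0.02 on slide 1 and -1.59 on slide 2.

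**Figure D3:**
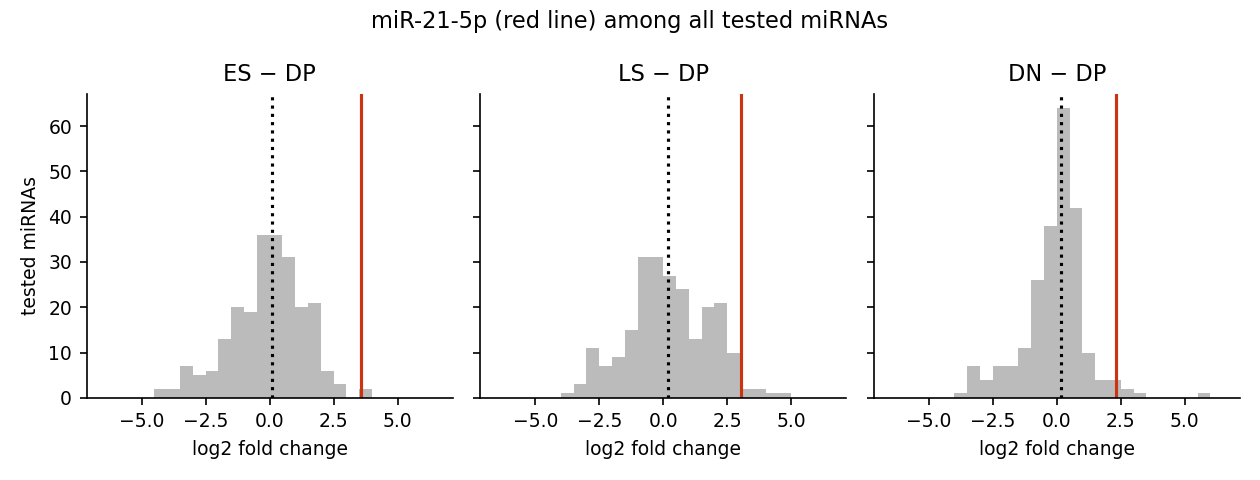
Histograms of the log2 fold change of 229 tested miRNAs in ES against DP, LS against DP and DN against DP. The dotted line is the median of all tested miRNAs (0.07, 0.19 and 0.15) and the red line is miR-21-5p (3.55, 3.03 and 2.31), in the upper tail of each.

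miR-21-3p, the passenger arm, was at or near background on the primary arrays. Its background-subtracted intensity was 1.52, 1.75 and 1.82 in DN and 2.85, 3.90 and 3.21 in DP. These values are below the negative-control standard deviation of every array, and miR-21-3p was above background on 0 of 6 thymocyte arrays. In ES it was 5.08, 10.6 and 29.6, and in LS it was 19.6, 9.35 and 12.3, in replicate order. Only ES 3 and LS 1 were above background, the same arrays that led for miR-21-5p. The other values have no firm order, and that of ES 1 lies under the negative-control standard deviation of its own array, 18.7. The scanner software's own detection call per miRNA, a more lenient rule, was positive on 5 of 6 T-ALL arrays (all but ES 1) and on 0 of 6 thymocyte arrays.

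On the log2 scale all 6 thymocyte arrays, ES 1 and LS 2 were at the floor of -7.59 and have no order there. The values were -7.35 in ES 2, -6.19 in ES 3, -6.59 in LS 1 and -7.04 in LS 3. With no group above background on all its arrays, miR-21-3p was not tested, and the T-ALL minus thymocyte difference of 0.53 is given without a p from that fit. When all 1122 mouse miRNAs were fitted, its limma adjusted p for this difference was 0.400. All 6 thymocyte arrays, ES 1 and LS 2 entered that fit at the floor, so it cannot decide whether miR-21-3p rose in T-ALL. No fold is given, because only 1 of 3 arrays of ES and 1 of 3 of LS measured it above background.

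The 4 probes of miR-21-3p, with 10 spots each, did not agree. Probes 1 and 2 stayed at 29.2 intensity units or less on every array and were above background on none. Probe 3 was above background on 2 arrays, ES 3 at 42.9 and M295 at 125. Probe 4 was above background on 3 arrays, at 66.9 in ES 3, 46.9 in LS 1 and 180 in M295. On the thymocyte arrays probe 4 lay between 3.83 and 9.99, and on the T-ALL arrays between 22.6 and 66.9. Apart from ES 3 and LS 1, these values were not above background.

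**Figure D4:**
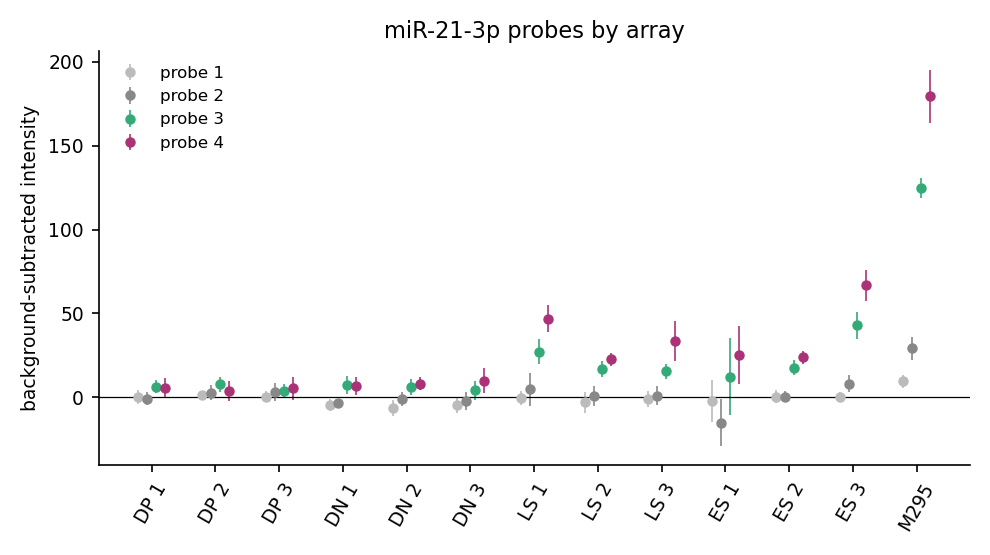
Background-subtracted intensity (linear scale) of the 4 miR-21-3p probes on each of 13 arrays, with points for the mean and bars for the SD of up to 10 spots. Probes 3 and 4 reach 42.9 and 66.9 in ES 3 and 125 and 180 in M295, whereas probes 1 and 2 stay at 29.2 or less.

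The M295 line had the highest signal of both arms. Its miR-21-5p level was 3.66, from an intensity of 27711, against 1.39 to 3.42 in the 6 primary T-ALL arrays. That is 1.41 above their mean on the log2 scale, or 2.65-fold, and 0.25 above ES 3. Its miR-21-3p level was -4.67, from an intensity of 85.8, which is 1.52 above ES 3, the highest primary array. Relative to the lowest measurable signal, miR-21-3p in M295 was at least 7.14-fold higher than in DP and at least 6.72-fold higher than in DN. In the authors' deposited table, ES 3 and M295 have the same miR-21-5p value, 13.38 on its log2 scale, so the order of these arrays differs with the processing. M295 has 1 array and so no replicate check, and no test was made.

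Markers of other cell types were read beside these values, because ES 3 and LS 1 set the upper end of miR-21-5p. ES 3 had the myeloid miRNA miR-223-3p at 2.85. On the other 11 primary arrays miR-223-3p lay between -7.31 and -4.89, above background only in DN. The summed linear signal of the 2 myeloid markers, in units of the array's 75th percentile, was 0.0074 to 7.23 in ES, 0.0097 to 0.0107 in LS, 0.0063 to 0.0090 in DP and 0.0251 to 0.0337 in DN. The part of myeloid RNA in the ES 3 value of miR-21-5p was not tested. Without ES 3, the ES over DP difference of miR-21-5p was 3.10 with a limma adjusted p of 9.11e-05, and the T-ALL over thymocyte difference was 1.91 with a limma adjusted p of 1.25e-04. In LS 1 and M295, which had the other highest levels of miR-21-5p, miR-223-3p was not above background, at -6.64 and -7.59.

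The erythroid markers, 3 of 4 of which are on the array, summed to 0.754 to 1.02 in DN, 0.0115 to 0.0224 in DP, 0.0158 to 0.389 in ES, 0.0896 to 1.61 in LS and 0.0078 in M295. Their main member, miR-451, was -0.50 to -0.06 in DN, -6.45 to -5.49 in DP, -5.98 to -1.53 in ES and -3.56 to 0.58 in LS. In M295 it was not above background. It was higher in DN than in DP, by 5.63 ± 1.17 (SE; limma adjusted p = 0.00466), as miR-21-5p was. Of 10 endothelial and stromal markers, only miR-126-3p was above background, on the 3 DN arrays, at -4.69 to -4.63, and the list summed to 0.0476 to 0.0496 in DN and 0.0111 to 0.0138 in DP. The part of either cell type in the DN over DP difference, or in the T-ALL values of miR-21-5p, was not tested. The sum over the 10 was 0.0078 to 0.0144 in ES, 0.0047 to 0.0227 in LS and 0.0104 in M295. The 7 epithelial markers summed to 0.0126 to 0.0170 in DN and 0.0162 to 0.0203 in DP. They summed to 0.0106 to 0.0390 in ES, 0.0231 to 0.0546 in LS and 0.0435 in M295. None was above background in DN or DP, whereas 2 were on some array of ES, 3 of LS and 2 in M295. Among them miR-200c-3p was at the floor in DN and DP. It was above background in ES 2, ES 3, LS 2 and M295, at -6.49 to -5.87. The part of epithelial cells in the T-ALL values of miR-21-5p was not tested.

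Mature lymphocyte markers summed to 0.0970 to 0.136 in DN, 0.208 to 0.233 in DP, 0.156 to 0.626 in ES, 0.159 to 0.382 in LS and 0.467 in M295. miR-150-5p, the miRNA that marks resting mature lymphocytes, was highest in ES 3 at -1.85 and not above background in ES 2 or LS 3. Its values in DP, -2.58 to -2.37, lay above all T-ALL arrays but ES 3. The part of mature lymphocytes in the T-ALL values of miR-21-5p was not tested.

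The miRNAs whose levels followed miR-21-5p most closely over the 12 primary arrays were miR-5099, miR-342-3p, miR-125a-3p, miR-2137 and miR-5105. Pearson's r was 0.937 for miR-5099, 0.930 for miR-342-3p, 0.881 for miR-125a-3p, 0.872 for miR-2137 and 0.870 for miR-5105, and Spearman's rho was 0.867, 0.923, 0.845, 0.902 and 0.902. miR-125a-3p was not above background on 7 of the 12 arrays, among them all DN and DP arrays, so its likeness rests in part on unmeasured values. These describe 12 arrays that share group means and array scaling, and they carry no p. After group means were removed, r was 0.917 for miR-342-3p but 0.597 for miR-5099, whose likeness lay more in the group means. miR-342-3p, on the list of mature lymphocyte markers, was -4.87 to -4.76 in DP, -4.12 to -3.69 in DN, -2.77 to -1.55 in ES, -3.00 to -1.78 in LS and -1.50 in M295. Like miR-21-5p it was lowest in DP, highest in M295, and led by ES 3 and LS 1 among the primary T-ALL arrays. It was chosen for this pattern, so its levels are a description with no test.

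**Figure D5:**
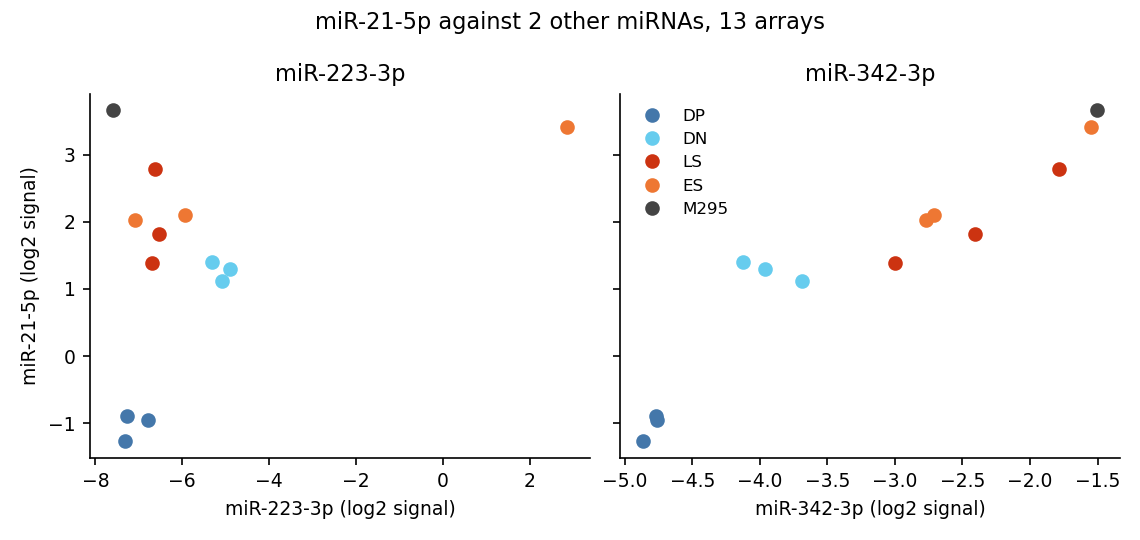
Level of miR-21-5p against miR-223-3p (left) and miR-342-3p (right), both log2 relative to the array's 75th percentile, for 13 arrays coloured by group. ES 3 stands alone at 2.85 for miR-223-3p, whereas the arrays run from DP at the lower left to ES 3 and M295 at the upper right for miR-342-3p.

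The miRNAs that ran most against miR-21-5p were miR-181c-5p, miR-30c-5p and miR-25-3p, with r of -0.929, -0.908 and -0.904 and rho of -0.867, -0.867 and -0.839 over the 12 arrays. With group means removed, r was -0.14 for miR-181c-5p and 0.11 for miR-30c-5p, and -0.794 for miR-25-3p. miR-181c-5p belongs to the miR-181 family of thymocyte miRNAs. Like most of the miRNAs picked for their likeness, it is described with no test. The exception is miR-25-3p, picked on these same arrays, whose test is given below as a member of the list of oncogenic miRNAs.

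Of 10 listed miRNAs induced by lymphocyte activation or inflammation, 4 passed the filter and were tested. In T-ALL against thymocytes miR-21-5p was the 1 called higher, and miR-155-5p, a miRNA of activated lymphocytes, was the 1 called lower, by a log2 fold change of -2.62 ± 0.77 (SE; limma adjusted p = 0.0146). It was not above background on 4 of the 6 T-ALL arrays, so the size of that change rests in part on values at or near the floor. Over all tested miRNAs 31.4% were called higher and 25.8% lower in this comparison, so 1 of 4 each way is near the background. The median of these 4 was -0.39, against -0.12 over all tested miRNAs. miR-155-5p was -3.02 to -2.77 in DN and -3.34 to -3.28 in DP, and above background on 1 of 3 arrays of ES and 1 of 3 of LS. Its highest T-ALL value was -2.35 in ES 3, which also had the highest miR-146a-5p, at -2.20, a miRNA of NF-kappaB feedback that was at the floor in DP. In ES against DP the list had 1 called higher and 0 lower, where 21% and 25.3% of all tested miRNAs were called. In LS against DP it had 1 and 1, beside 32.3% and 26.2%, and in DN against DP 1 and 0, beside 10.5% and 18.8%. The member called higher was miR-21-5p each time.

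Of 14 miRNAs known as oncogenic in many tumours, 11 were tested, and miR-21-5p was also the 1 called higher in T-ALL against thymocytes. The 2 called lower were miR-155-5p and miR-25-3p, a member of the miR-106b cluster, at -0.62 ± 0.15 (SE; limma adjusted p = 0.00598). The median of the 11 was -0.25. Both counts, 1 higher and 2 lower of 11, are below the 31.4% and 25.8% of all tested miRNAs called in these directions. The members of the miR-17 cluster and its paralogs that were tested were otherwise not called. Their changes ran from -0.43 to 0.22, and all but miR-18a-5p, at 0.22, were negative. In DN against DP, 3 of the 11 were called higher and 0 lower, miR-21-5p with miR-18a-5p at 1.69 ± 0.44 (SE; limma adjusted p = 0.0146) and miR-19a-3p at 1.19 ± 0.34 (SE; limma adjusted p = 0.0239), beside 10.5% of all tested miRNAs called higher and 18.8% lower. miR-590-5p, listed as a sharer of the miR-21-5p seed but not found among the RefSeq names with that seed, was at the floor on every array.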

How the data were processed

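Total RNA (miRNeasy) was hybridised to Agilent arrays with Cy3, and 13 arrays were used in 5 groups. Per the file headers, images were read with Feature Extraction 10.7.3.1. The deposited scanner files give a background-subtracted intensity per spot, not scaled between arrays. The values deposited by the authors in a series table are on the log2 scale, and the median of its column medians is 3.29. Each column ranks miRNAs as the same array's total signal does (Spearman 1.00). The table was taken to be quantile normalized, which these values alone do not show. RMA, affy, MAS5 and GCOS stand in the submitters' processing notes, with no role given.

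Control and outlier spots (4.03 to 8.60% per array) were left out. Linear means were taken over the spots of a probe and then over the probes of a miRNA, and arrays were scaled, floored and put on the log2 scale as the results state. limma 3.58.1 in R 4.3.3 (lmFit, eBayes; version 1.17.8 of data.table) fitted 12 arrays with 1 mean per group. The fit was tested on simulated data. Python 3.11.15 with pandas 2.3.3, numpy 2.4.6 and matplotlib 3.10.9 did the rest. For a lower bound on a fold, a dim array takes its own value or the lowest signal measured above background there, whichever is greater. The number of arrays limits precision.

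The members, lists and tests were chosen with earlier results of these data known. Named were both members, the 5 miRNAs most like and 3 least like miR-21-5p by Pearson's r, up to 4 called members of each list, and defining markers of other cell types. The values of miR-146a-5p, miR-181a-5p and miR-18a-5p outside that rule were chosen after their values were seen. Over all groups, arrays with the same replicate number did not deviate together (r -0.34 to 0.50 over 18 pairs, median 0.01), and the numbers were not used to pair samples. Between DN and DP alone, r was -0.01, 0.46 and 0.23 for the same number, and -0.33 to 0.08 for other numbers. A pairing of DN with DP is therefore not excluded. No array was a duplicate of another (highest r 0.998). The labels call the arrays biological replicates. Background correction, scaling, floor, filters, spot and probe summaries, fit, slide, replicate block and left-out arrays were varied.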

Additional observations from a re-analysis of the deposited data

Results flagged for a closer look

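M295, which enters no comparison between groups, had both arms of miR-21 above the thymocyte level. Its miR-21-5p intensity was 27711, against 4028 on the highest thymocyte array. Its miR-21-3p intensity was 85.8, against 3.90 on the highest thymocyte array. With 1 array the difference was not tested. For each arm, the 6 T-ALL and the 6 thymocyte arrays were checked as pooled groups, 4 groups of values in all. The gap of the highest or lowest array to the next was set against the range, and none was flagged. DN and DP lie apart in miR-21-5p, which widens the thymocyte range. The thymocyte values of miR-21-3p were not above background. The check therefore says little about single thymocyte arrays, and it did not look within ES or LS.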

How the results depend on the processing

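Outside slide 1 alone, the calls of miR-21-5p held in 30 alternatives each against DP for ES (3.01 to 4.50 over all alternatives), LS (2.58 to 3.34) and DN (2.15 to 2.61), and in 29 for T-ALL against thymocytes (1.73 to 2.53). These include slide 2 alone, where ES and LS have 1 array each and are assumed to vary like the other groups. Its calls for ES, LS and T-ALL are therefore no support. On slide 1, with 6 arrays, the values were 3.01, 3.03, 2.24 and 1.90, and these calls did not hold. DN and DP have 1 array each there, so no p is given. The exact permutation values within slides were 1.90 and 2.53, where the design cannot pass. LS minus DN was called in none of 31 (0.22 to 1.03). Scaling over all mouse miRNAs called LS minus ES (-1.26, limma adjusted p = 0.0488), with a shift of -0.66 in the median of all tested miRNAs, and ES minus DN (1.48, limma adjusted p = 0.00951), with a shift of 0.17. ES minus DN was also called without ES 2 (1.49). On slide 2, where ES and LS are 1 array each, these differences were -1.59 and 2.16, with no test. The cause was not tested. That scaling shifts the median in ES against DP by 0.51 and in LS against DN by -0.47.

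With single arrays left out, miR-21-5p ranged over 1.91 to 2.29 in T-ALL against thymocytes (exact permutation 1.86 to 2.40), 3.10 to 3.80 in ES and 2.64 to 3.34 in LS and 2.19 to 2.39 in DN against DP, -0.91 to -0.07 in LS against ES, 0.79 to 1.49 in ES and 0.33 to 1.03 in LS against DN.

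The miR-21-3p difference in T-ALL (0.53) was 2.23 with quantile normalization, 2.29 with a floor of 1 intensity unit, 1.05 with outlier spots kept, 0.17 with normexp, 0.31 within slide 1, 0.32 to 0.67 with single arrays left out, and 0, 0, 1.11 and 1.76 by probes 1 to 4 alone. It rests on the floor, as 4 of 6 T-ALL arrays were not above background. The M295 excess over the T-ALL mean scaled over all mouse miRNAs was 0.61 for miR-21-5p and 1.67 for miR-21-3p. For miR-21-3p, 2.39 with the settings reported, it was 0.45 with normexp, 1.01 in the authors' value table, 1.81 with outlier spots kept, and 0 and 1.36 by probes 1 and 2.

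The counts of called miRNAs moved more, each alternative being a count of its own; within a slide they take the spread of single arrays from the other groups. In T-ALL against thymocytes (131 as reported) the count was 60 among the 108 miRNAs above background on all 12 arrays and 30 within slide 1. In ES against DP (106) it was 60 among those 108, 62 with the groups fitted alone, 29 in slide 1 and 165 in slide 2. In LS against DP (134) it was 68 among the 108 and 56 in slide 1. In DN against DP (67) it was 33 among the 108, 42 with normexp, 157 with array weights, 164 with the groups alone, 18 in slide 1 and 123 in slide 2. In LS against ES (6) it was 3 with normexp and with slide block, 1 with quantile normalization, 31 with array weights, 114 in slide 2, and 0 in slide 1, with the groups alone and without a filter. In ES against DN (15) it was 0 with normexp, 42 scaled over all, 9 with the low floor and with slide block, 1 without a filter, 7 among the 108, 3 with the groups alone, 3 in slide 1 and 137 in slide 2. In LS against DN (76) it was 46 with normexp, 21 without a filter, 35 among the 108, 135 with array weights, 3 in slide 1 and 118 in slide 2. With single arrays left out the counts were 110 to 154, 69 to 120, 99 to 164, 1 to 55 (LS against ES), 44 to 101 (DN against DP), 0 to 40 (ES against DN) and 32 to 117 (LS against DN), and 55, 101 and 117 came without ES 3.

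With the replicate block, each miR-21-5p value was unchanged (ES over DP 3.55, limma adjusted p = 4.07e-04), and no call of it changed. The counts were then 3 in LS against ES and 6 in ES against DN. Arrays of the same number were most alike for 5 of 12, and the labels state no pairing. These values do not exclude a pairing of DN with DP.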
